A study of Rattus norvegicus with 16 samples.

Results

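The genes described are the 9 pore-forming subunits of the AMPA and kainate receptors, the 4 AMPA subunits Gria1 to Gria4 and the 5 kainate subunits Grik1 to Grik5. They were chosen by gene symbol, and each had 1 row in each table, 9 of 26031 rows for the CA1 field of the hippocampus and 9 of 24779 rows for white blood cells (WBC). The CA1 and WBC samples each came from 4 male Sprague-Dawley rats whose brains were injured by fluid percussion (TBI) and 4 that had sham surgery, which makes 16 RNA-seq libraries in 4 groups. All rats were tested for learning at 1 week after surgery and killed afterwards, so the tissue carries both the surgery and the test. The labels give each library a number within its group and state neither which numbers belong to 1 rat nor whether animals were pooled, so the p-values reflect only how far these libraries spread. Values are FPKM, fragment numbers divided by transcript length and by library size, so levels can be compared between genes within a table.

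AMPA receptors are ligand-gated cation channels built from 4 subunits, and they carry most of the fast excitatory current at synapses on CA1 pyramidal neurons. Their number and composition at the synapse change in long-term potentiation and depression, and edited Gria2 in the complex keeps calcium out of the pore. Kainate receptors have a similar architecture and sit on both sides of the synapse, where they modulate transmitter release and excitability. Grik1, Grik2 and Grik3 can form channels on their own, whereas Grik4 and Grik5 bind agonist with high affinity and need one of the other 3 as a partner.

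Library quality and tissue identity were checked first. Summed FPKM ran from 1726843 to 3520669 in CA1 and from 482286 to 832725 in WBC, and across rows any CA1 pair of libraries correlated at a Pearson's r of 0.967 to 0.981 and any WBC pair at 0.910 to 0.968. Fragment counts are not part of these values, so the depth is unknown. In CA1 the first principal component (22.9% of the variance) set TBI 1 and sham 1 apart from the other 6 libraries. Of 8 CA1 and excitatory neuron markers 7 averaged at least 1 FPKM in CA1, while Fibcd1 was listed at 0 in every CA1 library. Markers of the dentate gyrus, CA3 and CA2 were also read, with a summed level of 587 to 780.5 FPKM in TBI and 542 to 788 FPKM in sham. Choroid plexus markers summed to 164 to 2721 FPKM in TBI and 4.66 to 1291 FPKM in sham. All 12 leukocyte markers averaged at least 1 FPKM in WBC, against 1 of 12 in CA1. In WBC they summed to 1829 to 2735 FPKM in TBI and 2221 to 2506 FPKM in sham. Erythroid markers were also read there, at 4260 to 10370 FPKM in TBI and 10020 to 16260 FPKM in sham. Platelet markers summed to 1808 to 5265 FPKM in TBI and 5637 to 7747 FPKM in sham, so the WBC libraries are not leukocyte RNA alone.

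All 9 subunits were expressed in CA1, and none differed between TBI and sham by the test used. The limma model on log2(FPKM + 0.5), adjusted by Benjamini-Hochberg over 14637 tested rows, called 0 of 9 subunits at an adjusted p of 0.05, where it called 0.00683% of all tested rows. At an unadjusted p under 0.05 it again gave 0 of 9, against 5.14% of all tested rows, and the TBI and sham libraries overlapped for all 9, where 2.88% of tested rows did not overlap. The count at an unadjusted p under 0.05 rested on sham 1: without that library it was 2 of 9, Grik3 and Grik4, where all tested rows gave 12.3%, and with TBI 1 also left out it was 3 of 9, Gria1 being the other, where all tested rows gave 13.7%. None of these passed the adjusted threshold. The log2 difference, TBI minus sham, was above 0 for 4 subunits and below 0 for 5, with a median of -0.03, against -0.01 over all tested rows. The 95% intervals differed in width, with the lowest bound at -38.6% (Grik4) and the highest at 49.1% (Grik3). Each interval, before adjustment over the tested rows, holds the changes that 4 libraries a group do not exclude, and it is not a detection limit. In tissue pieces of this kind, fewer cells of a type and less RNA per cell cannot be told apart.

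**Figure D1:**
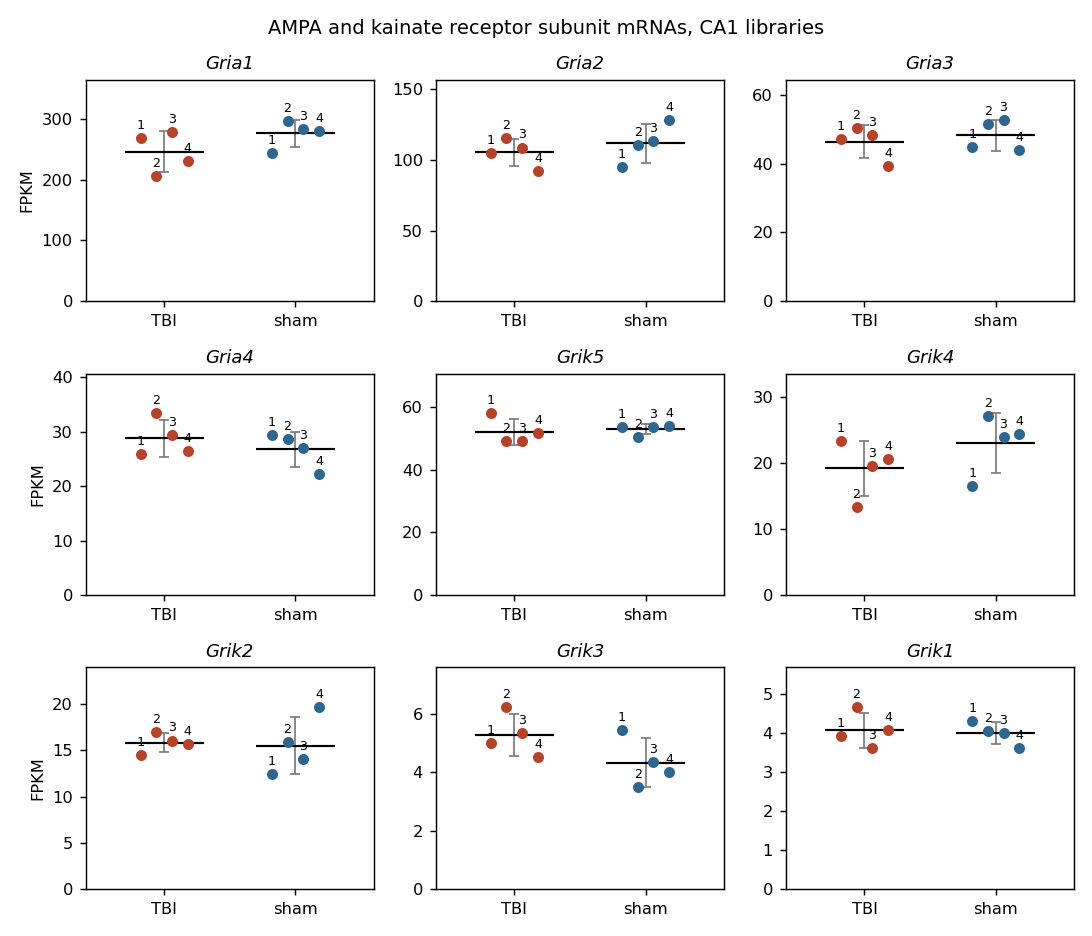
FPKM of each subunit in the 4 TBI and 4 sham CA1 libraries, 1 panel per gene with its own axis from 0; points carry the library number, black lines are means and grey bars SDs (n = 4). The groups overlap in all 9 panels, TBI 2 is the lowest library for Gria1 and Grik4, and sham 2 is the highest for both.

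The levels of the subunits in CA1 spanned a 64.7-fold range. Gria1 was the most abundant, at 261 FPKM over all 8 libraries, above 98.1% of tested rows, followed by Gria2 at 108 FPKM. Gria1 exceeded Gria2 by 2.41 times, and Gria2 exceeded the next gene, Grik5, by 2.07 times, with no overlap of their ranges over the 8 libraries. Grik5 averaged 52.4 FPKM and Gria3 47.3 FPKM, and these neighbours overlapped, with Grik5 higher in 6 of 8 libraries. Gria3 in turn lay above Gria4, at 27.8 FPKM, without overlap. Gria4 and Grik4 (21.1 FPKM) overlapped, as did Grik4 and Grik2 (15.7 FPKM). Grik3 at 4.81 FPKM and Grik1 at 4.03 FPKM were the least abundant and overlapped each other, while Grik2 exceeded Grik3 by 3.26 times without overlap. The spread over the 8 libraries differed between subunits, with a coefficient of variation of 5.69% for Grik5 and 8.64% for Grik1 at the low end and 18.3% for Grik3 and 21.5% for Grik4 at the high end.

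Gria1 encodes GluA1, the subunit whose insertion at CA1 synapses is a hallmark of long-term potentiation. It had 269, 206, 278 and 231 FPKM in TBI 1 to 4, against 244, 297, 283 and 280.0 FPKM in sham 1 to 4. All 4 TBI libraries lay below the sham median and 2 of them, TBI 2 and TBI 4, below the lowest sham library, sham 1. The mean was 246 ± 33.7 FPKM in TBI and 276 ± 22.4 FPKM in sham (SD, n = 4 each), a log2 difference of -0.17 ± 0.11 (SE) or -11.3%, with a 95% interval of -25.3% to 5.29% (limma, adjusted p = 0.891). Without TBI 2 the difference was -0.09 and without sham 1 it was -0.23, and neither passed. Beside Gria1, the markers of CA1 and excitatory neurons had 6 of 7 tested members with differences below 0 (median -0.19, 0 of 7 called), and their summed level was 2309 to 2581 FPKM in TBI and 2226 to 3097 FPKM in sham. Other lists lay below 0 as well, with 6 of 6 astrocyte markers (median -0.17) and 5 of 5 endothelial markers (median -0.25). Most tested members were below 0 for the dentate gyrus, CA3 and CA2 (6 of 7), microglia (4 of 5) and pan-neuronal (3 of 4) lists. Of all tested rows 53.3% were below 0. Among the endothelial markers 3 had an unadjusted p under 0.05 by limma and 0 were called, where 5.14% of all tested rows had such a p. The interneuron markers Gad1 (-0.18) and Gad2 (-0.34), 1 astrocyte and 1 pan-neuronal marker also had such a p, all lower in TBI. So did 1 erythroid marker, which was higher in TBI. Of these, 0 were called. Differences above 0 were found for 5 of 5 tested choroid plexus markers, 3 of 5 oligodendrocyte markers and 4 of 7 GABAergic interneuron markers. The part of cell content in the Gria1 values was not tested.

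Gria2 encodes GluA2, the subunit that sets the calcium permeability of the receptor through RNA editing of its pore. Its row is listed together with the microRNA Mir2985, which lies within the Gria2 gene. The mature miRNA is shown because its host row is the one measured here, with its seed, bases 2 to 8, in capitals (RefSeq, build GRCr8, chr2:168254526-168254547, minus strand). Libraries made by poly-A selection from fragments of mRNA size read the host transcript and not the mature miRNA, so no level is given for it.
rno-miR-2985: uGUUAUAGuaucccaccuaccc

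Gria2 had 105, 115, 109 and 91.9 FPKM in TBI 1 to 4, against 94.55, 110.1, 113 and 128 FPKM in sham 1 to 4. The lowest library was TBI 4 and the highest sham 4, with the other 6 interleaved. Its mean was 105 ± 9.79 FPKM in TBI and 112 ± 13.8 FPKM in sham, and the log2 difference was -0.08 ± 0.10 (SE), with an interval of -19.8% to 11.2% (limma, adjusted p = 0.918). Without sham 4 the difference was -0.013 and without sham 1 it was -0.16.

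Gria3, which pairs mostly with Gria2, had 47.2, 50.4, 48.3 and 39.4 FPKM in TBI 1 to 4, against 44.9, 51.6, 52.6 and 43.8 FPKM in sham 1 to 4. TBI 4 was again the lowest library, and without it the log2 difference of -0.06 ± 0.09 (SE) turned to 0.016. Gria4, a subunit prominent in interneurons and in early postnatal pyramidal cells of rodents, had 25.8, 33.3, 29.4 and 26.5 FPKM in TBI 1 to 4, against 29.4, 28.7, 26.9 and 22.2 FPKM in sham 1 to 4. TBI 2 was the highest library and sham 4 the lowest. The log2 difference of Gria4 was 0.10 ± 0.11 (SE), the only AMPA subunit with a difference above 0 (limma, adjusted p = 0.902), and it was 0.016 without sham 4 and 0.029 without TBI 2. Over the 4 AMPA subunits the median difference was -0.07, and their summed level was 426 ± 35.3 FPKM in TBI and 463 ± 33.6 FPKM in sham (SD, n = 4 each), with overlapping groups.

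The proportions of the AMPA subunits within each library do not depend on how that library was scaled. Gria1 made up 60.2, 50.8, 59.9 and 59.4% of the summed AMPA subunit FPKM in TBI 1 to 4, against 59.1, 60.9, 59.5 and 59.0% in sham 1 to 4. The share was therefore held within 59.0 to 60.9% in 7 of the 8 libraries and was lower in TBI 2. In TBI 2 the remaining 3 subunits were correspondingly higher: Gria2 made up 28.5%, where the other 7 libraries had 22.6 to 27.0%, Gria3 12.5%, where they had 9.24 to 11.0%, and Gria4 8.24%, where they had 4.68 to 7.11%. The ratio of Gria1 to Gria2 was 1.78 in TBI 2, 2.52 to 2.57 in the other 3 TBI libraries and 2.18 to 2.70 in sham. As a group, TBI had a Gria1 share of 57.6 ± 4.52% and sham of 59.6 ± 0.885% (SD, n = 4 each), a difference of -2.06 percentage points that became 0.19 without TBI 2. No p is given for these proportions, which are a description.

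**Figure D2:**
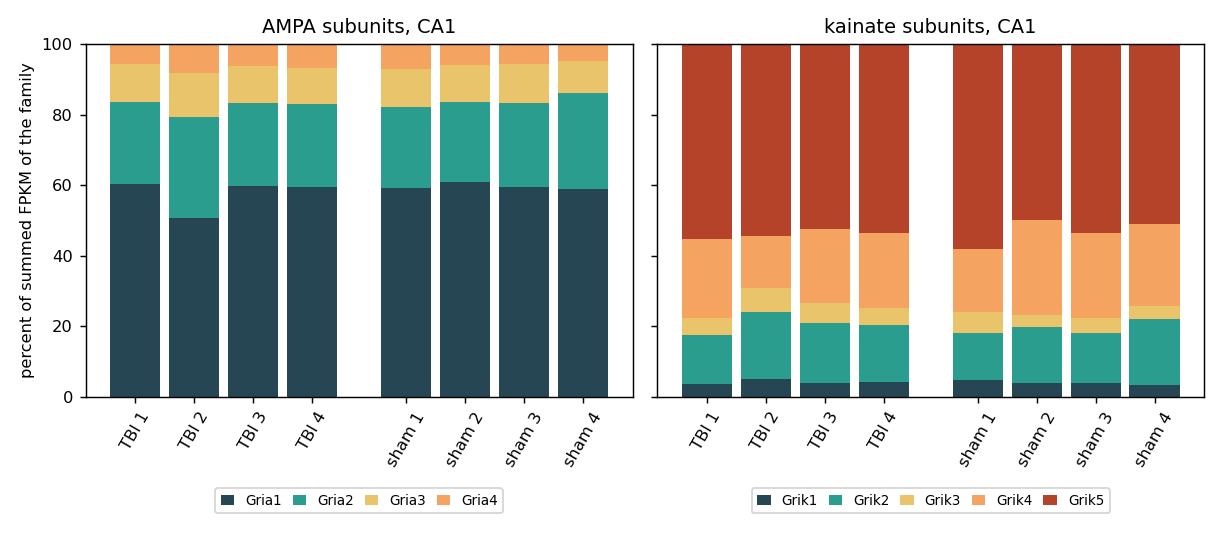
Share of each subunit in the summed FPKM of its receptor family, 1 bar per CA1 library, TBI libraries left of sham libraries, AMPA subunits in the left panel and kainate subunits in the right panel. Gria1 holds 59.0 to 60.9% in 7 libraries and 50.8% in TBI 2, and Grik5 holds 49.96 to 58.0% of the kainate sum.

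Kainate subunit mRNA was dominated by Grik5, which encodes GluK5, the obligate partner that gives most neuronal kainate receptors their high affinity. It had 57.9, 49.1, 49.1 and 51.8 FPKM in TBI 1 to 4, against 53.5, 50.4, 53.7 and 54.0 FPKM in sham 1 to 4. TBI 1 was the highest and TBI 3 the lowest library, so the TBI libraries bracketed all 4 sham libraries. The mean was 52.0 ± 4.17 FPKM in TBI and 52.9 ± 1.67 FPKM in sham, a log2 difference of -0.03 ± 0.06 (SE) with an interval of -11.4% to 8.49%, the narrowest of the 9 subunits (limma, adjusted p = 0.951). Grik5 made up 53.9 ± 1.25% of the kainate sum in TBI and 53.2 ± 3.58% in sham. The summed kainate level was 96.3 ± 6.13 FPKM in TBI and 99.7 ± 5.54 FPKM in sham, so the AMPA sum exceeded it by 4.43 times in TBI and by 4.64 times in sham.

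Grik4, the other high-affinity subunit, encodes GluK4 and is known in rodents for strong expression in CA3 pyramidal cells and the dentate gyrus. It had 23.3, 13.3, 19.5 and 20.6 FPKM in TBI 1 to 4, against 16.5, 27.1, 24.0 and 24.3 FPKM in sham 1 to 4. All 4 TBI libraries lay below the sham median, yet sham 1 was lower than 3 of them. The mean was 19.2 ± 4.21 FPKM in TBI and 23.0 ± 4.52 FPKM in sham, a log2 difference of -0.26 ± 0.19 (SE) with an interval of -38.6% to 13.8%, the widest on the low side (limma, adjusted p = 0.891). Without TBI 2 the log2 difference was -0.10, and without sham 1 it was -0.41. The markers of the dentate gyrus, CA3 and CA2 had a mean log2 deviation from the 8-library mean of 0.09, -0.24, 0.14 and -0.17 in TBI 1 to 4. In sham 1 to 4 it was -0.06, 0.17, -0.09 and 0.16. TBI 2 was lowest in that list as in Grik4, and sham 2 was highest, with sham 4 close to it. The list of CA1 and excitatory neuron markers also had TBI 2 lowest (-0.18). By summed FPKM the dentate gyrus, CA3 and CA2 list was not lowest in TBI 2, at 726 FPKM against 642 in TBI 1 and 587 in TBI 4. Pcp4 made up most of that sum, with 546 FPKM in TBI 2, 369 in TBI 1 and 370 in TBI 4. Prox1, C1ql2, Bok and Rgs14 were each lowest in TBI 2, whereas Stxbp6, Amigo2 and Pcp4 were lowest in other libraries. The part of neighbouring fields in the Grik4 values was not tested.

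Grik2 encodes GluK2, the principal low-affinity subunit of hippocampal neurons. It had 14.5, 17.0, 16.1 and 15.7 FPKM in TBI 1 to 4, against 12.4, 15.9, 14.1 and 19.7 FPKM in sham 1 to 4. The 4 TBI libraries all fell between the lowest and the highest sham library. The log2 difference was 0.05 ± 0.13 (SE, limma, adjusted p = 0.964), and without sham 1 it was -0.051.

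Grik3 encodes GluK3, a low-affinity subunit known from presynaptic mossy fibre terminals in mice. It had 5.002, 6.23, 5.35 and 4.53 FPKM in TBI 1 to 4, against 5.47, 3.51, 4.35 and 4.01 FPKM in sham 1 to 4. No TBI library lay below the sham median, and 3 of the 4 sham libraries lay below every TBI library, with sham 1 second only to TBI 2. The mean was 5.28 ± 0.718 FPKM in TBI and 4.33 ± 0.830 FPKM in sham. Its log2 difference of 0.27 ± 0.14 (SE) was the largest upward one of the 9 subunits, with an interval of -3.08% to 49.1% (limma, adjusted p = 0.891). Grik1, which encodes GluK1 and is known from hippocampal interneurons, had 3.92, 4.67, 3.61 and 4.09 FPKM in TBI 1 to 4, against 4.32, 4.05, 3.996 and 3.62 FPKM in sham 1 to 4. The Grik1 values were interleaved, with a log2 difference of 0.02 ± 0.09 (SE) whose sign changed without TBI 2 (-0.040) or without sham 4 (-0.021).

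Grik3 and Grik4 ordered the CA1 libraries in nearly opposite ways. From the lowest to the highest Grik4 value the order was TBI 2, sham 1, TBI 3, TBI 4, TBI 1, sham 3, sham 4 and sham 2. From the highest to the lowest Grik3 value it was the same except that TBI 1 and TBI 4 changed places. The ratio of Grik3 to Grik4 was 0.215, 0.467, 0.274 and 0.220 in TBI 1 to 4, against 0.331, 0.130, 0.182 and 0.165 in sham 1 to 4, so 1 sham library lay among the TBI libraries. Having TBI 2 and sham 1 as the lowest pair and sham 2 as the highest library was shared by 1.59% of all tested rows, among the subunits by Grik4 alone, and among 30 tested genes of the receptor pathway by Shisa6, Neto1 and Nptx1. The mirror image was shared by 1.05% of tested rows, by Grik3 and by Dlg1. This pattern was chosen after its values were seen and is a description with no test. GABAergic interneuron markers had a mean log2 deviation of 0.04, 0.07, -0.01 and -0.12 in TBI 1 to 4, against 0.25, -0.19, 0.05 and -0.09 in sham 1 to 4, with sham 1 highest and sham 2 lowest. Sham 1 was also the highest library for endothelial (0.40) and oligodendrocyte (0.28) markers, whereas Grik3 was highest in TBI 2. The part of any of these cell types in the Grik3 values was not tested.

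**Figure D3:**
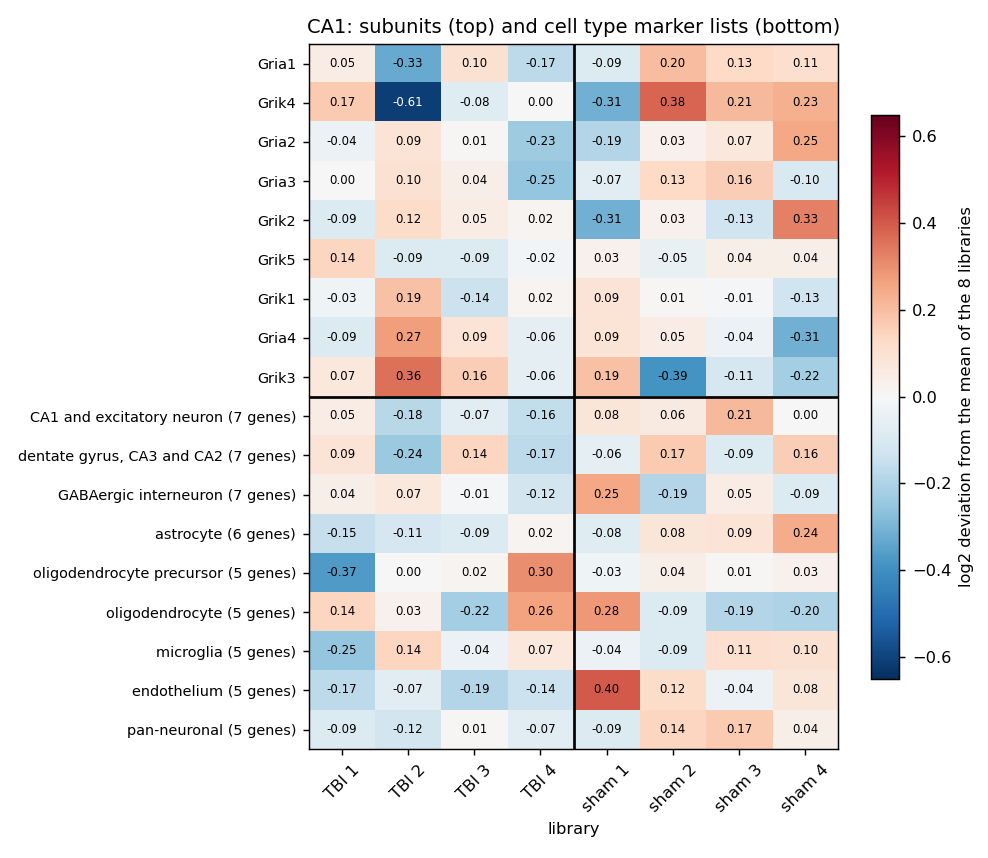
Log2(FPKM + 0.5) of each subunit in each CA1 library as its deviation from the mean of the 8 libraries (top 9 rows), and the mean deviation of cell type marker lists (bottom 9 rows, with the number of genes averaging at least 1 FPKM). TBI libraries are left of the black line and sham libraries right of it; Grik4 is at -0.61 and Grik3 at 0.36 in TBI 2, and they are at 0.38 and -0.39 in sham 2.

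Sequence upstream of the start given by RefSeq (build GRCr8) was at hand for 6 of the 9 subunits, Gria4 and Grik1 to Grik5. That start need not be the outermost one of the gene: the windows of Grik5, Grik4 and Grik1 lie wholly inside the annotated gene, that of Gria4 lies partly inside, and those of Grik3 and Grik2 lie outside. The 250 bases before the tabulated start are printed for 3 of them, Grik5 as the most abundant kainate subunit with the least variation, and Grik3 and Grik4 as the pair with opposite orders. Capitals mark the GC box GGGCGG, or CCGCCC where it lies on the other strand, and overlapping matches were counted. The windows are chr1:89794910-89795159 (minus strand), chr5:143052192-143052441 (plus strand) and chr8:52102064-52102313 (minus strand). The annotated Grik4 gene runs to chr8:52228751, so its window lies far inside the gene and not at its outermost end.
Grik5: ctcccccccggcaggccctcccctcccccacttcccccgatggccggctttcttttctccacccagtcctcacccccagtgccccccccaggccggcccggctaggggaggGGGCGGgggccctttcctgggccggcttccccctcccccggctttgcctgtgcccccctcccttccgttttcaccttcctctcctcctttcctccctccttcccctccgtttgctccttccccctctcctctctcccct
Grik3: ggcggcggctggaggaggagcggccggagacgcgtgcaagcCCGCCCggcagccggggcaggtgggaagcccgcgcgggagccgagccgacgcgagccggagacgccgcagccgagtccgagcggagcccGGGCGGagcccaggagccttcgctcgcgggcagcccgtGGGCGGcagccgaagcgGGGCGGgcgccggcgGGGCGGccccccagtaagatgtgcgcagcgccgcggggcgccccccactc
Grik4: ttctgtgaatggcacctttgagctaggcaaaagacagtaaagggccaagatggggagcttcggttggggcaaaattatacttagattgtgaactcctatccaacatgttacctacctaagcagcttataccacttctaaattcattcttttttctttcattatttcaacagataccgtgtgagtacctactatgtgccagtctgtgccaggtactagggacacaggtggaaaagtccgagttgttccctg

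Grik3 had 5 matches and Grik5 1, while the windows of Grik4, Gria4, Grik1 and Grik2 had 0. Of 33469 rat windows of the same length 30.5% held at least 1 match. GC content was 81.6% for Grik3, above 99.3% of those windows, 70.8% for Grik5 and 43.2% for Grik4, against a median of 51.2%. Grik3 had 41 CpG dinucleotides, Grik5 10 and Grik4 3, against a median of 5. The matches describe letters in these windows and say nothing of a factor binding there. The Grik4 values come from far inside its gene and do not describe the sequence before the gene's outermost end.

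Auxiliary subunits and partners control how AMPA and kainate receptors reach and stay at the synapse. Together with the RNA editing enzymes and a few related receptor genes, 34 such genes were listed, of which 31 were in the CA1 table and 30 were tested, and limma called 0 of them (adjusted p of 0.891 to 0.999). At an unadjusted p under 0.05 there were 2, Adarb2 and Nptx2, against 5.14% of all tested rows. The differences were above 0 for 7 genes and below 0 for 23, with a median of -0.03, against -0.01 over all tested rows, of which 53.3% were below 0. Among 14 AMPA auxiliary subunits 5 were above 0 and 9 below (median -0.06), and both kainate auxiliary subunits, Neto1 and Neto2, were below 0 (median -0.16). Among 10 trafficking and anchoring partners 2 were above 0 and 8 below (median -0.02), and the remaining 4 tested genes, among them the editing genes Adarb1 and Adarb2, were below 0.

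The gene with the smallest p in this list was Adarb2, which encodes an RNA-binding relative of the editing enzymes with no known editing activity. It had 5.40, 5.06, 6.07 and 4.81 FPKM in TBI 1 to 4, against 5.96, 7.94, 7.33 and 5.84 FPKM in sham 1 to 4, a log2 difference of -0.31 ± 0.11 (SE, limma, adjusted p = 0.891). TBI 3 lay above 2 sham libraries. Adarb1, which edits the Gria2 pore codon, had 37.4 ± 3.16 FPKM in TBI and 38.7 ± 8.56 FPKM in sham (limma, adjusted p = 0.983), and FPKM carries no measure of editing. Adar was not tested in CA1 because the authors' tool did not mark all its values as OK.

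Nptx2, a secreted pentraxin that gathers AMPA receptors at synapses on interneurons, had 26.3, 33.8, 31.5 and 29.4 FPKM in TBI 1 to 4, against 34.3, 34.1, 33.0 and 41.8 FPKM in sham 1 to 4. The groups overlapped only through TBI 2, and the log2 difference was -0.24 ± 0.10 (SE, limma, adjusted p = 0.891). Syndig1, a transmembrane protein associated with AMPA receptors, had 18.9, 19.4, 17.96 and 18.9 FPKM in TBI 1 to 4, against 19.7, 20.5, 23.4 and 19.9 FPKM in sham 1 to 4. It was the 1 gene of the 30 whose groups did not overlap, where 2.88% of all tested rows did not, and its log2 difference was -0.14 ± 0.06 (SE, limma, adjusted p = 0.891).

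On the upper side, Dlg1, which encodes the scaffold SAP97 that binds the tail of Gria1, had 21.9, 33.8, 25.4 and 24.4 FPKM in TBI 1 to 4, against 25.7, 20.3, 23.3 and 22.6 FPKM in sham 1 to 4. TBI 2 was its highest library, the library in which Gria1 was lowest. Its log2 difference was 0.18 ± 0.13 (SE, limma, adjusted p = 0.891). The cornichon Cnih3, an AMPA receptor auxiliary subunit, averaged 34.1 ± 4.59 FPKM in TBI and 29.9 ± 7.003 FPKM in sham, and Prrt2 averaged 71.9 ± 6.10 FPKM in TBI and 67.7 ± 8.36 FPKM in sham, with differences of 0.20 and 0.09.

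**Figure D4:**
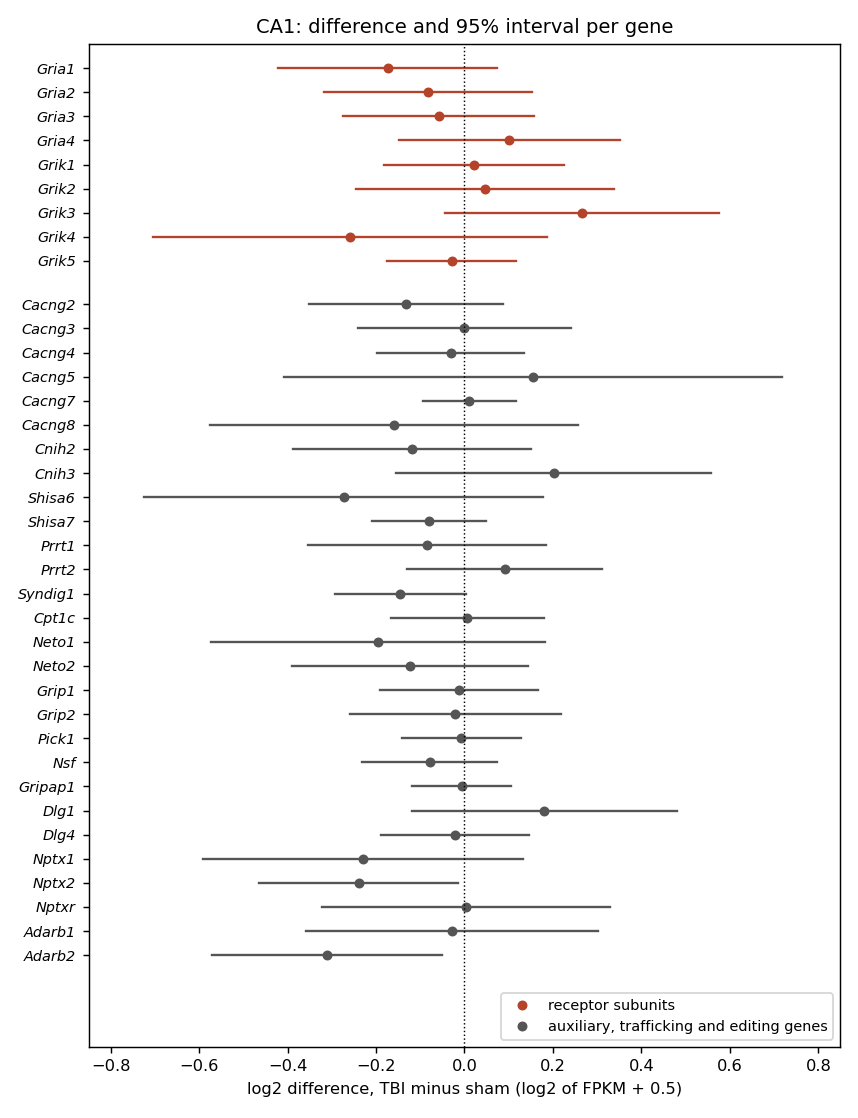
Log2 difference in CA1, TBI minus sham, on the log2(FPKM + 0.5) scale with its 95% interval for the 9 subunits (red) and 28 of the tested partner genes (grey), from limma on 4 TBI and 4 sham libraries. All 9 subunit intervals include 0, and of the partner genes drawn those of Nptx2 and Adarb2 do not, before any adjustment for the number of rows tested.

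Some genes followed the abundant subunits closely over the 8 CA1 libraries. Likeness was measured as the root mean square difference between the mean-centred log2(FPKM + 0.5) values, over 9841 rows with a mean of at least 5 FPKM. For Gria1, whose own spread about its mean was 0.17 on that scale, the nearest rows were Lppr4 (0.05), the unnamed locus XLOC_008757 (0.05) and Rasd1 (0.06). For Grik5, with a spread of 0.08, they were Slc25a11, Zdhhc7 and RGD1561328 (0.03 each). With 8 libraries and many rows compared, some close matches arise in any table, and the likeness is a description.

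In white blood cells all 9 subunits averaged under 1 FPKM, from 0.00569 FPKM for Grik3 to 0.596 FPKM for Gria3. None reached the minimum mean of 1 FPKM, so 0 of 9 entered the test, and the TBI and sham libraries overlapped for all 9, where 5.06% of rows between 0 and 1 FPKM did not overlap. With the minimum removed, limma called 0 of 9, also at an unadjusted p under 0.05 (adjusted p of 0.433 to 0.964). Of 13413 rows tested in WBC, 0% passed the adjusted threshold, while 20.3% had an unadjusted p under 0.05. Grik1, Grik2, Grik3, Grik4 and Gria4 were listed at 0 in at least 2 of the 8 libraries each, and at these levels no order between them can be read.

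Gria3 was the highest of them, with 0.626, 0.389, 0.787 and 0.763 FPKM in TBI 1 to 4, against 0.559, 0.628, 0.547 and 0.466 FPKM in sham 1 to 4. It exceeded Gria2 in all 8 libraries without overlap of their ranges, by 2.43 times on average, whereas in CA1 Gria2 exceeded Gria3. The TBI libraries held both the lowest and the highest Gria3 value. Gria2 had 0.125, 0.250, 0.388 and 0.207 FPKM in TBI 1 to 4, against 0.194, 0.321, 0.165 and 0.311 FPKM in sham 1 to 4. Gria1 had 0.0176, 0.04999, 0.366 and 0.122 FPKM in TBI 1 to 4, against 0.410, 0.0417, 0.362 and 0.210 FPKM in sham 1 to 4, with a 23.3-fold range over the 8 libraries. Pan-neuronal markers summed to 1.34, 3.26, 8.86 and 3.165 FPKM in TBI 1 to 4 and 2.07 to 3.24 FPKM in sham. TBI 3 was also the highest library for astrocyte markers (7.08 FPKM), Gria2 and Gria3, while Gria1 was highest in sham 1. The part of such markers in these low values was not tested.

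Among the kainate subunits in WBC, Grik5 had 0.0761, 0.282, 0.238 and 0.173 FPKM in TBI 1 to 4, against 0.176, 0.235, 0.0465 and 0.0845 FPKM in sham 1 to 4. Grik1 had 0.0888, 0.0629, 0.0943 and 0 FPKM in TBI 1 to 4, against 0.0268, 0, 0.0276 and 0.0251 FPKM in sham 1 to 4. For Grik1, 3 TBI libraries lay above every sham library, while TBI 4 was listed at 0. For Grik4 the reverse held, with 3 TBI libraries below every sham library, at 0.0155, 0, 0.0453 and 0 FPKM in TBI 1 to 4, against 0.0267, 0.0336, 0.0265 and 0.0965 FPKM in sham 1 to 4. These values are near 0, and with the minimum removed limma gave an unadjusted p of 0.12 for Grik1 and 0.18 for Grik4. Grik2 reached at most 0.0246 FPKM in TBI and 0.0577 FPKM in sham, and Grik3 was listed at 0 in 6 of 8 libraries. The CA1 and WBC tables were normalized separately, so the levels of a subunit in the tissues are given side by side with no test.

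**Figure D5:**
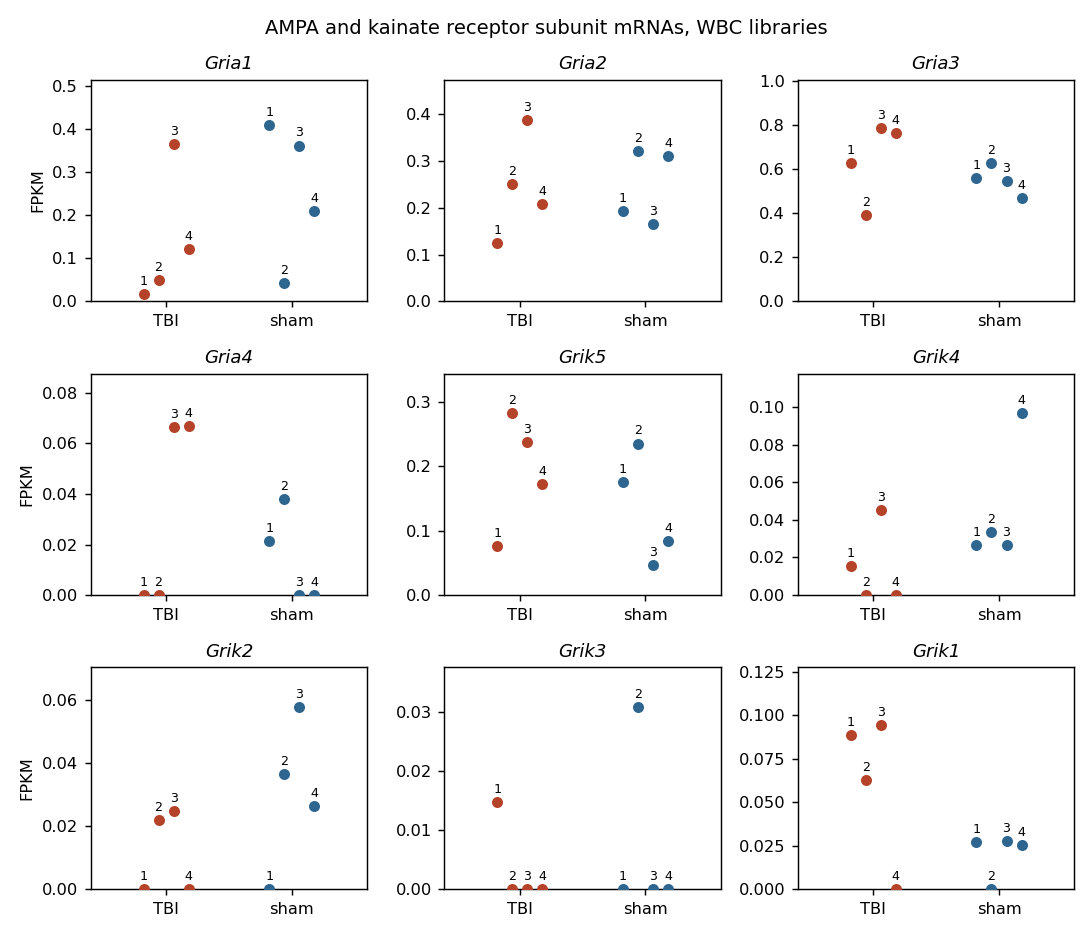
FPKM of each subunit in the 4 TBI and 4 sham WBC libraries, 1 panel per gene with its own axis from 0; points carry the library number. No subunit exceeds 0.787 FPKM in any library, the groups overlap in all 9 panels, and 5 subunits have libraries listed at 0.

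Of the 31 partner genes in the table of WBC values, 12 were tested and limma called 0 (adjusted p of 0.132 to 0.992), with 7 differences above 0, 5 below and a median of 0.02, against -0.00311 over all tested rows, of which 50.4% were below 0. Gripap1, which binds the anchoring protein Grip1 and acts in endosomal recycling, was the 1 gene with an unadjusted p under 0.05 and the 1 gene whose groups did not overlap, where 14.2% of tested rows did not. It had 24.4, 31.2, 29.9 and 22.0 FPKM in TBI 1 to 4, against 32.6, 47.4, 40.5 and 40.7 FPKM in sham 1 to 4, a log2 difference of -0.58 ± 0.15 (SE, limma, adjusted p = 0.132). In CA1 Gripap1 averaged 44.1 ± 1.90 FPKM in TBI and 44.3 ± 1.03 FPKM in sham (SD, n = 4 each). In WBC the 6 erythroid markers, all with differences below 0, summed to 4260 to 10370 FPKM in TBI and 10020 to 16260 FPKM in sham, and the 4 platelet markers in the table to 1808 to 5265 FPKM in TBI and 5637 to 7747 FPKM in sham. Their part in the Gripap1 values was not tested. The other genes named by p were Prrt1, Pick1 and Dlg4 above 0 (0.29, 0.12 and 0.19) and Cnih3 and Cnih2 below 0 (-0.43 and -0.28), and the TBI and sham libraries overlapped for all 5.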

How the data were processed

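Poly-A RNA was sequenced from CA1 and white blood cells, with 4 TBI and 4 sham libraries per tissue. The deposited values are FPKM with a status per value, in 1 table per tissue. Per the submitters' processing notes, the authors used TopHat, TopHat2, Bowtie, Bowtie2, Cufflinks and Cuffdiff with build rn5; no source used here gives their roles or versions, the annotation or how library size was set. Tissues were therefore tested apart. FPKM gives no fragment counts, so no counting interval is given.

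Members were matched by symbol; Gria2 shares its row with Mir2985. Rows with a mean of at least 1 FPKM over the 8 libraries and every status OK were tested on log2(FPKM + 0.5), where fold changes of low genes are understated, with limma 3.58.1 (lmFit, eBayes with a trend, 2-sided, no covariate) in R 4.3.3, adjusted by Benjamini-Hochberg over all rows, threshold 0.05. The procedure was tested on simulated data. Members and lists were chosen with earlier results of these data known. Named genes are all members, per tissue and direction the 3 tested partner genes of smallest p, and the 3 rows most like the most abundant member of each family; Adarb1, Neto1, Neto2, Shisa6 and Nptx1 were named besides. A gene of the partner lists is not reported here, though the counts include it. Shisa9, Gsg1l and Frrs1l had no matching row. Promoter and miRNA sequences are from RefSeq (GRCr8), whose coordinates differ from those of rn5. Alternatives were pseudocounts of 0.1 and 1, no minimum or a minimum of 5 FPKM, median-ratio and quantile scaling, limma without a trend or robust, equal numbers as a block, and leaving out each library. Software was Python 3.11.15, numpy 2.4.6, pandas 2.3.3 and matplotlib 3.10.9.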

Additional observations from a re-analysis of the deposited data

Results flagged for a closer look

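In groups of 4 libraries, 1 library standing far from the other 3 was looked for in 70 sets of values, and chance alone gives such a gap in about 1 in 20 groups. In CA1, Grik5 was 50.4 FPKM in sham 2, where the other 3 sham libraries had 53.5 to 54.0 FPKM. The AMPA subunit proportions of TBI 2 stood apart from those of the other 3 TBI libraries in 4 measures that share the same values: the Gria1 share was 50.8%, where the others had 59.4 to 60.2%, the Gria2 share was 28.5%, where they had 23.4 to 23.6%, the ratio of Gria1 to Gria2 was 1.78, where they had 2.52 to 2.57, and the ratio of Gria1, Gria3 and Gria4 together to Gria2 was 2.51, where they had 3.23 to 3.28.

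In WBC all such gaps were at levels under 0.1 FPKM. Grik1 was listed at 0 in sham 2, where the other 3 sham libraries had 0.0251 to 0.0276 FPKM, and Grik4 was 0.0965 FPKM in sham 4, where the others had 0.0265 to 0.0336 FPKM. Grik3 was 0.0147 FPKM in TBI 1 and 0.0308 FPKM in sham 2 and listed at 0 in the other 3 libraries of each group. With 3 values at 0 such a gap arises whatever the remaining value is, so the chance rate given above does not apply to Grik3.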

How the results depend on the processing

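The number of CA1 subunits called at the adjusted threshold was 0 under every alternative listed in the processing section. In WBC it was 0 with no minimum, where all 9 were tested; under the other alternatives 0 subunits were tested there, so that count says nothing about stability. Of 14637 CA1 rows 1 was called, and 2 with quantile scaling, 3 with limma without a trend and 1 to 2 with each library left out. Leaving out a pair of libraries, chosen after seeing the data, gave 2 without TBI 1 and sham 1 and 2 without TBI 2 and sham 1. In WBC 0 rows were called, and 0 to 4 with each library left out (4 without TBI 2, 1 without sham 2). At an unadjusted p under 0.05 the 752 CA1 rows became 1256 without a minimum, 450 at a minimum of 5 FPKM, 497 to 1802 with each library left out, and 1999 and 1539 without the pairs. Of the 9 CA1 subunits, 0 had an unadjusted p under 0.05, but 2 did without sham 1 (Grik3, Grik4), 3 without TBI 1 and sham 1 (also Gria1) and 2 without TBI 2 and sham 1 (Grik3, Grik4). Gria1, Gria2, Gria4, Grik3 and Grik4 kept their direction in CA1 in every alternative that gave a value, Gria1 between -0.24 and -0.09, Gria2 between -0.16 and -0.013, Gria4 between 0.016 and 0.15, Grik3 between 0.18 and 0.37 and Grik4 between -0.41 and -0.10 with 1 library left out. The lowest adjusted p was 0.302 (Grik4), 0.309 (Grik3) and 0.36 (Gria1) over their alternatives. The sign turned for Grik1 (-0.040 without TBI 2, -0.021 without sham 4, and -0.040 to 0.070 with each library left out), Gria3 (0.016 without TBI 4, range -0.10 to 0.016) and Grik2 (-0.051 without sham 1, range -0.051 to 0.16). Without TBI 1 and sham 1, Grik2 was -0.012, and without TBI 2 and sham 1, Grik1 was -0.0060, Grik2 -0.085 and Grik5 0.0030. The cause was not tested. Grik1 and Grik3 gave no value at a minimum of 5 FPKM. The replicate block, with equal numbers of TBI and sham paired, called 0 subunits and 1 CA1 row and 0 WBC rows, and moved no other call. The samples were not treated as paired, because the labels give no pairing of equal numbers. The deviations of equal numbers correlated at 0.21, 0.023, 0.0514 and 0.24 in CA1, where unequal numbers gave -0.16 to 0.112. In WBC they correlated at 0.147, -0.00483, 0.0218 and -0.00821, where unequal numbers gave -0.131 to 0.0995. Equal numbers held the 2 highest of the 16 values in CA1 and the highest in WBC. Of 4 TBI libraries, 2 in CA1 and 1 in WBC correlated best with the sham library of their own number, so the values do not settle whether numbers mark pairs. FPKM of unknown depth limits what can be read for the WBC values, which moved with the pseudocount: the Gria1 difference of -0.24 was -0.63 at a pseudocount of 0.1.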

Other observations

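A pair of partner genes below the 1 FPKM minimum in white blood cells did not overlap between the groups; they were picked after their values were seen, and 5.06% of rows in that range did not overlap. Cacng7, an AMPA receptor auxiliary subunit, had 0.165, 0.288, 0.220 and 0.187 FPKM in TBI 1 to 4 and was listed at 0 in all 4 sham libraries. Nptx2 had 0.158, 0.182, 0.205 and 0.107 FPKM in TBI 1 to 4, against 0.530, 0.425, 0.384 and 0.350 FPKM in sham 1 to 4. Neither was tested, because both averaged under 1 FPKM. In CA1 the same genes averaged 91.4 ± 1.58 FPKM (Cacng7) and 30.2 ± 3.15 FPKM (Nptx2) in TBI and 90.7 ± 3.09 and 35.8 ± 4.05 FPKM in sham (SD, n = 4 each).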
